A study of Mus musculus with 2 samples.

Results

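The genes described here are 9 secreted components of Wnt signalling in the newborn mouse heart. They are the ligands Wnt2, Wnt4 and Wnt5a, the R-spondins Rspo1 and Rspo3, the secreted Frizzled-related proteins Sfrp1, Sfrp2 and Frzb, and the Dickkopf family member Dkk3. They were chosen by name, with earlier results of these data known, and all 9 were present among the 27999 features of both deposited matrices. The single group of the series is P0 whole heart: hearts of newborn C57BL6+ICR mice (postnatal day 0), with no treatment or mutation named, minced, digested with trypsin and captured as single cells with the 10x Chromium 3′ version 2 kit. It holds 1 biological replicate with 2 technical replicates, called library 1 and library 2 here. No separate animals are named, so every difference below is between cell classes of 1 cell suspension, is described by its size in both libraries, and carries no p-value.

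Wnt ligands are secreted lipid-modified proteins that bind Frizzled receptors and either stabilise beta-catenin or act through planar polarity and calcium branches. R-spondins bind Lgr receptors and keep the ubiquitin ligases Znrf3 and Rnf43 from removing Frizzled from the cell surface, which raises Wnt responsiveness. Secreted Frizzled-related proteins bind Wnt ligands outside the cell, while Dickkopf proteins act mostly on the Lrp co-receptors. Dkk3 is a divergent member for which this activity is unsettled. In the heart these signals are known for roles in the formation of the epicardium, the valves and the chambers.

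Barcodes with at least 500 detected genes and less than 0.5% of counts from globin genes were kept. These were 4596 barcodes with 30893527 counts in library 1 and 4005 with 27877193 counts in library 2, with a median of 5877.5 and 6074 counts per barcode. Each barcode was put in a class when its marker counts met the gate of that class alone, which placed 8051 of 8601 kept barcodes. A further 376 met more than 1 gate and were left out, and 174 met none. Doublets were not called, and how many remain was not estimated. The ending -like in a class name says that it comes from marker counts alone. There were 3965 ventricular and 1356 atrial cardiomyocyte-like barcodes, 1019 interstitial fibroblast-like, 628 vascular endothelial-like, 258 endocardial-like, 258 smooth muscle-like, 219 pericyte-like, 138 macrophage-like, 99 Scx/Fmod fibroblast-like and 58 epicardial-like. The 2 libraries shared 31 kept barcode sequences.

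The separations that matter most here are described by the marker lists. The same lists set the gates, so these values are no independent check of the classes. In the epicardial-like class 12 of 12 epicardial markers reached 20 CPM (the counts of a gene divided by all counts of the class, scaled to 1000000), and in the endocardial-like class 8 of 8 endocardial markers did. Epicardial markers summed to 6479 CPM in epicardial-like and 85.3 in endocardial-like barcodes. Endocardial markers summed to 2883 CPM in endocardial-like and 574 in epicardial-like barcodes, where Nfatc1, Cytl1 and Plvap were at 0. The Scx/Fmod fibroblast-like class was gated on fibrillar collagens together with Scx or Fmod, genes of tendon and valve connective tissue. It reached 20 CPM for 5 of its 9 markers, and the tendon genes Tnmd and Comp were at 0. Scx and Fmod summed to 733 CPM there and also to 450 CPM in epicardial-like barcodes, where the fibrillar collagens summed to 15462 CPM. Barcodes that met the epicardial gate were kept out of both fibroblast-like classes, so these genes do not separate them. Only 19 epicardial-like barcodes came from library 1, against 39 from library 2, so that class missed the minimum of 25 per library for the size rule used below and its levels are given beside it.

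**Figure D1:**
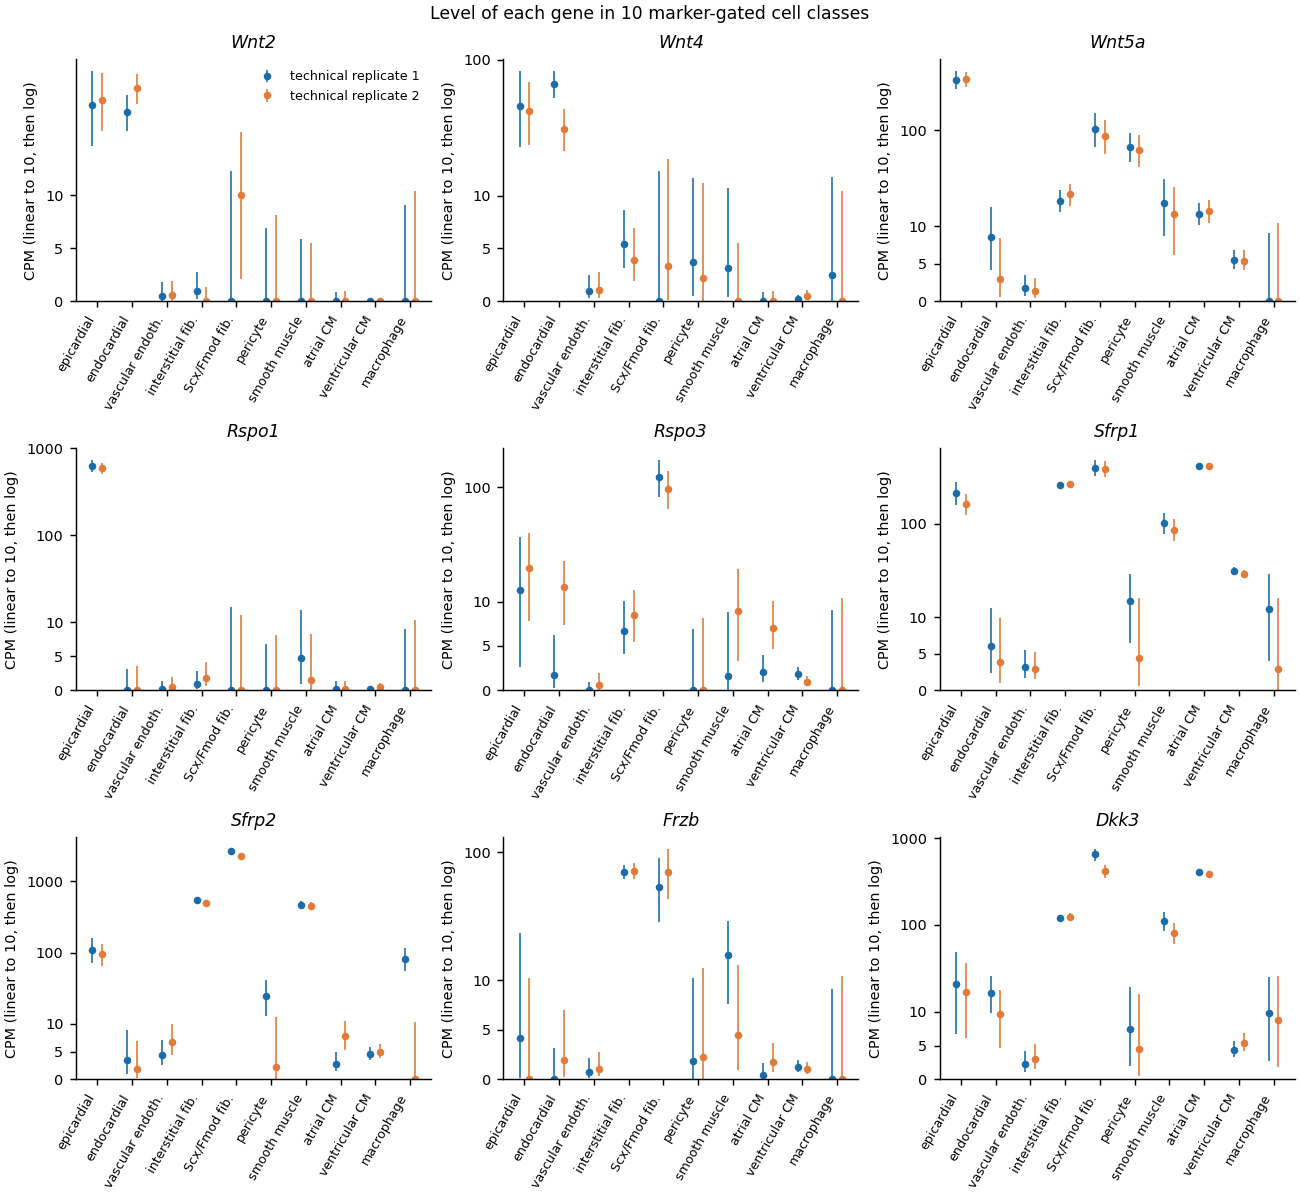
Level of each of the 9 genes (one panel per gene) in 10 cell classes. The y axis is CPM, linear to 10 and logarithmic above, points are the summed counts of library 1 and library 2, and bars are exact 95% Poisson intervals. Rspo1 stands at 604 CPM in the epicardial-like class and at no more than 3.07 CPM elsewhere, while Sfrp1 and Dkk3 are high in the fibroblast-like classes and in atrial cardiomyocyte-like barcodes.

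Of the 9 genes, 7 had their highest level in an epicardial-like, endocardial-like or fibroblast-like class far above the cardiomyocyte-like classes, and Sfrp1 and Dkk3 stood as high or nearly as high in atrial cardiomyocyte-like barcodes. A size rule was applied to the 9 classes with at least 25 barcodes in each library: at least 20 counts in the class and a CPM at least 2 times that of every other class in both libraries. Of 8 members with enough counts, 4 passed: Wnt2 and Wnt4 in the endocardial-like class, and Rspo3 and Sfrp2 in the Scx/Fmod fibroblast-like class. Among all 13269 genes tested the rule was met by 11.5%, by 1.55% in the endocardial-like and by 0.46% in the Scx/Fmod class. The median ratio of the highest class to the next was 3.05 for the 8 members and 1.25 for all genes tested. When the epicardial-like class was included, an alternative chosen after the data were seen, 4 of 9 members passed against 11.6% of all genes. They were Wnt5a and Rspo1 in the epicardial-like class (1.67% of all genes) and again Rspo3 and Sfrp2 in the Scx/Fmod class (0.383%). Intervals here and below are exact 95% intervals and cover counting error only.

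Wnt2 (ENSMUSG00000010797, chr6:17988940-18030585 of GRCm38, minus strand), a ligand best known from lung and vascular development, was counted mainly in the classes that line the heart. Its level was 40.6 CPM in library 1 and 60.9 in library 2 in endocardial-like barcodes, and 45.9 and 50.2 CPM in epicardial-like barcodes. These classes could not be separated from each other: the endocardial-like level was 1.03 times the epicardial-like one (0.682 to 1.62), with opposite order in the 2 libraries. The next class, Scx/Fmod fibroblast-like, had 3 counts in all, from 1 barcode of library 2. Pericyte-like, smooth muscle-like, cardiomyocyte-like and macrophage-like barcodes had 0 counts, and in the ventricular class a floor of 3 counts limits the level to 0.114 CPM (exact 95% upper limit 0.1396). Of all Wnt2 counts in the 10 classes, 73.8% came from endocardial-like and 19.5% from epicardial-like barcodes. The ratio to the next compared class was 9.11 (3.04 to 44.9), and it was 42.8 in library 1 alone and 6.09 in library 2 alone.

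Vascular endothelial-like barcodes, the other endothelial class, held only 4 Wnt2 counts in 628 barcodes. To compare shares at 1 depth, each barcode was thinned at random to 2000 counts and shallower ones were left out (3 endocardial-like, 4 vascular endothelial-like, 45 ventricular). Then 31 of 255 endocardial-like barcodes (12.2%, 8.41 to 16.8) had a Wnt2 count, against 1 of 624 vascular endothelial-like ones (0.160%). In the ventricular class it was 0 of 3920, which by the floor of 3 allows a share of up to 0.0765% of barcodes with a count (exact 95% upper limit 0.0941%), and is no limit on cells expressing the gene. Unthinned, the endocardial-like share was 24.4% at a median depth of 6661 counts, and the vascular endothelial-like share was 0.478% at 9476.5 counts. The deeper of these classes thus had the lower share.

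Wnt4 (ENSMUSG00000036856, chr4:137277489-137299726, plus strand), a ligand known from kidney and gonad development, was found in the same pair of classes. It stood at 66.5 and 30.9 CPM in endocardial-like and 45.9 and 41.9 CPM in epicardial-like barcodes of libraries 1 and 2. Interstitial fibroblast-like barcodes came next with 5.38 and 3.87 CPM, and atrial cardiomyocyte-like barcodes had 0 counts. The ratio of endocardial-like to interstitial fibroblast-like was 10.7. This value leaned on few barcodes: 44 of the 109 endocardial-like counts came from 1 barcode and 70 from 3, of which 2 belonged to library 1. Without these 3 barcodes the endocardial-like level fell to 18.5 CPM and the ratio to 3.98, still past the size rule, and the epicardial-like level was then 2.35 times the endocardial-like one.

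Within the endocardial-like class, how often Wnt2 and Wnt4 met depended on depth. Unthinned, 63 of 258 barcodes had Wnt2, 33 had Wnt4 and 14 had both, where the product of the shares gives 8.06. After thinning, 31 had Wnt2 and 7 had Wnt4 and none of 255 had both, where the product gives 0.851. The barcodes with Wnt2 were deeper than those without (median 7847 against 6171 counts). The 33 unthinned barcodes with Wnt4 (15 and 18 by library) were deeper than the 225 without (median 13728 against 6201 counts). Even without the 3 barcodes richest in Wnt4, the remainder carried 12.6 times the Fzd10 level (6.01 to 28.8), 7.38 times that of Hapln1 and 3.75 times that of Cldn11, and 0.573 times the Npr3 level. The Fzd10 value rests on 31 against 10 counts, at 25.6 against 11.2 CPM in library 1 and 118 against 0 in library 2. In the whole endocardial-like class only 9 barcodes had Fzd10, and 3 of them held 45 of its 69 counts. Fzd10 encodes a Frizzled receptor, Hapln1 a hyaluronan link protein of cushion and valve matrix, Cldn11 a tight junction protein and Npr3 a natriuretic peptide receptor of the endocardium. All 4 differences had the same direction in both libraries, while Wnt2 itself was at 57.7 against 49.8 CPM, within counting error. The endocardial marker Plvap and the general endothelial marker Emcn were lower as well, at 0.525 and 0.604 times. These genes were chosen after their values were seen, and the part of depth in the differences was not tested.

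Wnt5a (ENSMUSG00000021994, chr14:28504750-28527448, plus strand), the main ligand of the beta-catenin-independent branch, had the widest range among the 3 ligands. It reached 334 and 338 CPM in epicardial-like barcodes of libraries 1 and 2, 102 and 86.6 CPM in Scx/Fmod fibroblast-like and 67.2 and 62.0 CPM in pericyte-like barcodes. Interstitial fibroblast-like (18.4 and 21.4 CPM), smooth muscle-like (17.4 and 13.4 CPM) and atrial cardiomyocyte-like barcodes (13.5 and 14.4 CPM) formed a lower tier. The epicardial-like level was 3.59 times (2.63 to 4.98) the next. The Scx/Fmod and pericyte-like levels did not differ beyond counting error, with a ratio of 1.45 (0.980 to 2.12). In the thinned data 28 of 55 epicardial-like barcodes (50.9%, 37.1 to 64.6) had a Wnt5a count, against 11.2% of pericyte-like barcodes. Among macrophage-like barcodes it was 0 of 134, which by the same floor allows a share of up to 2.24% (exact 95% upper limit 2.72%). Median depth before thinning was 6646, 4062 and 4919 counts in these barcodes. Unthinned, the shares were 77.6%, 21.0% and 0%.

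Rspo1 (ENSMUSG00000028871, chr4:124986430-125009099, plus strand), an R-spondin known from gonad development, had the largest share of counts in a single class. Epicardial-like barcodes held 361 of its counts, at 630 CPM in library 1 and 586 in library 2, which is 93.5% of the counts in the 10 classes. The next class, smooth muscle-like, had 4 counts (3.07 CPM). Endocardial-like, Scx/Fmod fibroblast-like, pericyte-like and macrophage-like barcodes had 0. The thinned share of barcodes with a count was 67.3% in the epicardial-like class (37 of 55, 53.3 to 79.3%; 52 of 58 unthinned). It was 0 of 255 in the endocardial-like class, which by the same floor allows a share of up to 1.18% (exact 95% upper limit 1.44%), at a median depth of 6756 counts. Only 3 epicardial-like barcodes were too shallow to be thinned. Wnt5a and Rspo1 together marked 48 of the 55 thinned barcodes, and 17 had both, where the product of the shares gives 18.8.

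Promoter sequence was available for 5 of the 9 genes, Wnt2, Wnt4, Rspo1, Sfrp2 and Frzb, from RefSeq (GRCm38.p6), as windows of 300 bases, 250 before and 50 after the annotated start. Those for Wnt5a, Rspo3, Sfrp1 and Dkk3 were not used here. Shown are the stretches that lie upstream of both the RefSeq and the GENCODE start of Rspo1, the epicardial-like gene, and of Wnt4 and Wnt2, which share the endocardial-like and epicardial-like classes. They run 5′ to 3′ on the strand of the gene, at chr4:124986180-124986429, chr4:137277385-137277488 and chr6:18030586-18030695. Capitals mark the GC box letters GGGCGG or, for the other strand, CCGCCC.
Rspo1: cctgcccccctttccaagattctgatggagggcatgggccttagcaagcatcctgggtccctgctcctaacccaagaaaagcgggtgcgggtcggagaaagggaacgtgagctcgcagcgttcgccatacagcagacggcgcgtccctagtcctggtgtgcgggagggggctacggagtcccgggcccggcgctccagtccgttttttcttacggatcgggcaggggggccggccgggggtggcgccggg
Wnt4: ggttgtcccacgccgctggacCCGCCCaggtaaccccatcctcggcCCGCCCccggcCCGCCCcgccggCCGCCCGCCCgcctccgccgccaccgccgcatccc
Wnt2: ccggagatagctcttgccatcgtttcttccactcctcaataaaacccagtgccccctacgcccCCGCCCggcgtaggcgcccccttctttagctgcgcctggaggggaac
In the full windows the GC box letters occurred 8 times for Wnt4, 2 times for Wnt2, 1 time for Frzb and not at all for Rspo1 and Sfrp2; they were present in 35.7% of 32851 such windows. In the Wnt4 stretch 2 of the 5 marked matches overlap. The TCF/LEF letters CTTTGA (other strand TCAAAG) occurred 1 time for Frzb and in none of the other 4, against 16.0% of all windows. The GATA letters AGATAA (other strand TTATCT) were in none of the 5, against 11.2% of all. The Wnt4 window was 84.3% G and C, the other 4 between 64.7% and 69%, and the median window 52.7%.

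Rspo3 (ENSMUSG00000019880, chr10:29452416-29535867, minus strand), the R-spondin best known from vascular and placental development, was highest in another class than Rspo1. Its level was 123 and 96.6 CPM in Scx/Fmod fibroblast-like barcodes, 12.5 and 19.5 CPM in epicardial-like and 6.64 and 8.44 CPM in interstitial fibroblast-like barcodes of libraries 1 and 2. The Scx/Fmod level was 6.48 times (3.29 to 14.2) the epicardial-like one and was above every other class in both libraries. Pericyte-like and macrophage-like barcodes had 0 counts. Of the Scx/Fmod barcodes 26 of 99 had a count, or 17 of 99 (17.2%, 10.3 to 26.1) after thinning, compared with 1.20% of interstitial fibroblast-like barcodes (median depth 5031 and 5737 counts). Endocardial-like values were uneven, at 1.73 CPM in library 1 and 13.5 in library 2.

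Sfrp1 (ENSMUSG00000031548, chr8:23411502-23449632, plus strand), an extracellular Wnt antagonist, was high in both fibroblast-like and atrial classes. Atrial cardiomyocyte-like barcodes had 410 and 413 CPM, Scx/Fmod fibroblast-like 397 and 387, interstitial fibroblast-like 257 and 269 and epicardial-like 213 and 162 CPM in libraries 1 and 2. Smooth muscle-like barcodes followed with 101 and 86.3 CPM. Atrial and Scx/Fmod levels did not differ beyond counting error (ratio 1.05, 0.915 to 1.21), a ratio that became 1.58 with trimmed-mean (TMM) scaling. Both endothelial classes were low, at 5.02 CPM in endocardial-like and 3.09 in vascular endothelial-like barcodes. Because atrial barcodes were many, they held 54.2% of all Sfrp1 counts.

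Sfrp2 (ENSMUSG00000027996, chr3:83766321-83774316, plus strand), a related protein known also for effects on collagen maturation, was highest in the connective tissue classes. It reached 2651 and 2239 CPM in Scx/Fmod fibroblast-like barcodes of libraries 1 and 2, 540 and 499 in interstitial fibroblast-like and 468 and 454 CPM in smooth muscle-like barcodes. Scx/Fmod barcodes thus stood 4.65 times (4.36 to 4.97) above the next class, and this was the highest class in both libraries. The interstitial level was uneven across unsupervised clusters, each named by its most frequent gate. Interstitial fibroblast-like clusters ranged from 121 CPM (158 barcodes) to 1520 CPM (75 barcodes), against 1976 CPM in the Scx/Fmod fibroblast-like cluster. The cluster of 75 barcodes also had more Sfrp1 than the Scx/Fmod one, at 557 against 374 CPM. The lowest level was 2.74 CPM, in endocardial-like barcodes. Macrophage-like barcodes had 81.3 CPM in library 1 and 0 in library 2: all 33 counts lay in 3 barcodes of library 1, where the fibrillar collagen markers of the macrophage-like class also summed to 274 CPM against 87.5 in library 2. The part of such collagen-bearing barcodes in that value was not tested.

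Frzb (ENSMUSG00000027004, chr2:80411970-80447625, minus strand), first described in cartilage, was highest in the fibroblast-like classes. Interstitial fibroblast-like barcodes had 70.6 and 71.7 CPM and Scx/Fmod barcodes 53.2 and 70.0 CPM in libraries 1 and 2. The interstitial level was 1.14 times the Scx/Fmod one (0.802 to 1.67), which is within counting error, and the interstitial class held 81.3% of all Frzb counts. Smooth muscle-like barcodes came next with 15.8 and 4.47 CPM, and every other class was at or under 2.03 CPM. Among the inhibitors, Frzb was the one for which the Scx/Fmod class did not exceed the interstitial one in either library.

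Dkk3 (ENSMUSG00000030772, chr7:112116017-112159057, minus strand) was also high in both fibroblast-like and atrial classes. It stood at 650 and 417 CPM in Scx/Fmod fibroblast-like, 408 and 387 CPM in atrial cardiomyocyte-like and 119 and 123 CPM in interstitial fibroblast-like barcodes of libraries 1 and 2. The Scx/Fmod level was 1.31 times (1.16 to 1.48) the atrial one, but 0.870 times with TMM scaling, which reverses their order. Ventricular cardiomyocyte-like barcodes had 4.37 and 5.45 CPM. Of all Dkk3 counts 71.1% came from atrial barcodes.

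The first pair of classes asked how the outer and the inner lining of the heart differ, the epicardium and the endocardium. Of 8 genes with at least 20 counts over both classes, 4 were at least 2-fold higher in epicardial-like barcodes in both libraries (8.05% of 10026 genes tested) and 0 were at least 2-fold lower (12.7%). The higher ones were Wnt5a at 56.7-fold (32.4 to 108), Sfrp1 at 36.3-fold (19.5 to 74.9), Sfrp2 at 36.7-fold (15.9 to 104) and Rspo1. Since Rspo1 had 0 endocardial-like counts, its ratio is only bounded: against a floor of 3 counts over the class it was at least 441-fold higher, and the exact 95% lower limit was 357. In library 1 alone the bound against 3 counts was 243-fold and in library 2 alone 202-fold. Wnt2 (0.966, 0.619 to 1.47), Wnt4 (0.874, 0.547 to 1.35) and Dkk3 (1.39, 0.627 to 2.87) were on neither side, and Frzb had 3 counts. Rspo3 was 7.24-fold higher in library 1 and 1.44-fold in library 2. Without the 3 endocardial-like barcodes richest in Wnt4, its ratio turned from 0.874 to 2.35, so the place of Wnt4 in this pair rests on those barcodes.

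The second pair set Scx/Fmod fibroblast-like against interstitial fibroblast-like barcodes. Of 7 genes with enough counts, 4 were at least 2-fold higher in the Scx/Fmod class in both libraries (3.34% of 11033 genes) and 0 were at least 2-fold lower (5.55%). Rspo3 had the largest ratio, 14.5 (9.64 to 21.8), followed by Wnt5a at 4.73 (3.34 to 6.61), Sfrp2 at 4.65 (4.36 to 4.97) and Dkk3 at 4.31 (3.75 to 4.95). Sfrp1 was 1.49 times as high (1.28 to 1.72), short of the fold used, and Frzb 0.878 times (0.600 to 1.25). Wnt4 had 1 Scx/Fmod count. The Rspo3 ratio depended on where the border between the classes was drawn: it was 22.9 with 1 more marker asked of each gate and 244 with clusters in place of gates.

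**Figure D2:**
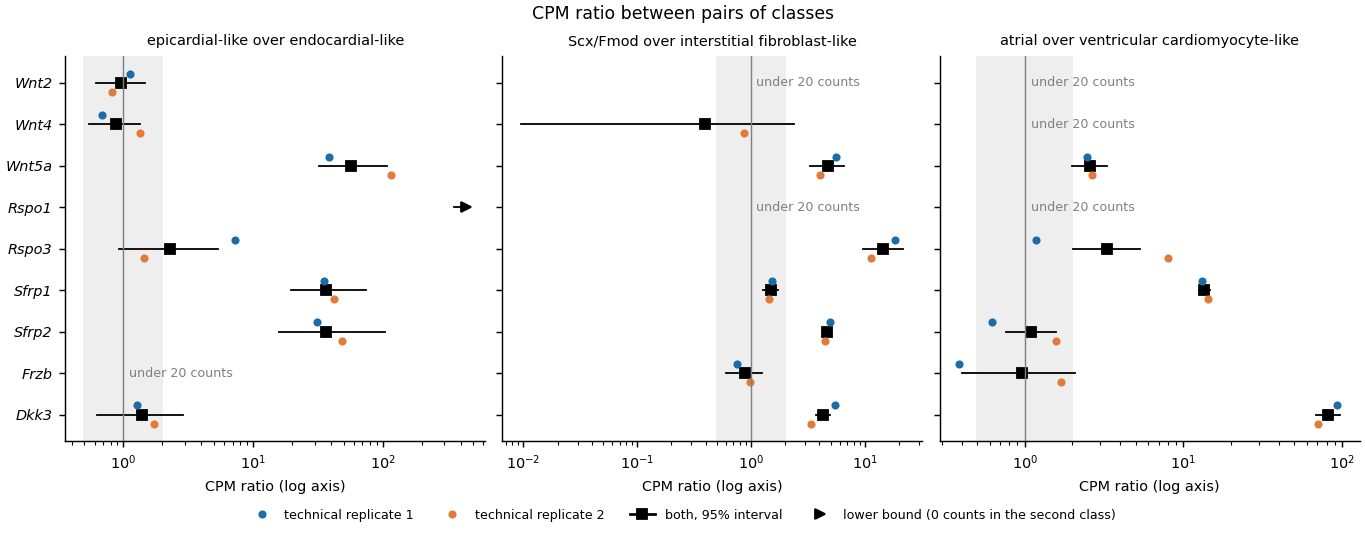
Ratio of CPM between pairs of classes for each gene, on a log axis. Circles are library 1 and library 2, squares with bars are both libraries with the exact 95% interval, the arrow is a lower bound and the grey band spans ratios from 0.5 to 2. Wnt2 and Wnt4 lie in the band for the epicardial-like and endocardial-like pair, while Wnt5a, Sfrp1 and Sfrp2 lie above 30.

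Atrial and ventricular cardiomyocyte-like barcodes were compared after the values had been seen. Of 6 genes with enough counts, 3 were at least 2-fold higher in atrial barcodes in both libraries, as were 9.95% of 12411 genes tested, and 0 were lower (2.65%). The median ratio of all genes was 1.32, on the atrial side, and TMM scaling moved every ratio down by 0.48 on the log2 scale. The part of scaling in this median was not tested. The median mitochondrial share of counts was 41.0% in ventricular and 21.6% in atrial barcodes. Dkk3 was 81.5-fold higher in atrial barcodes (68.4 to 98.0), at 398 against 4.88 CPM, and 52.9-fold higher when barcodes over 20% mitochondrial counts were left out. Sfrp1 was 13.6-fold higher (12.6 to 14.7), at 411 against 30.3 CPM, and 6.14-fold without those barcodes. Wnt5a was 2.58-fold higher, but 1.85-fold with TMM scaling and 1.78-fold without barcodes over 20% mitochondrial counts, both under the fold used. Rspo3 differed between libraries, at 1.172-fold and 8.002-fold, and was 0.770 times as high in atrial barcodes, the other direction, without barcodes over 20% mitochondrial counts. Of the 37 atrial Rspo3 counts, 22 came from 3 barcodes. In an unsupervised cluster of 59 barcodes named atrial cardiomyocyte-like, Rspo3 stood at 83.3 CPM (82.1 and 84.4 by library). Atrial clusters of 614 and 649 barcodes held 0 and 1 Rspo3 counts.

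The atrial signal was spread over many barcodes, but unevenly. After thinning, 575 of 1335 atrial barcodes (43.1%, 40.4 to 45.8) had Sfrp1 and 704 (52.7%, 50.0 to 55.4) had Dkk3, compared with 5.41% and 0.867% of 3920 ventricular barcodes. Unthinned, the atrial shares were 63.9% and 82.2%, and the ventricular ones 16.1% and 2.85%. Median depth was 5723 counts in these atrial and 6403 in these ventricular barcodes. Fibroblast markers summed to 53.7 CPM in atrial, 43.7 CPM in ventricular and 8306 CPM in interstitial fibroblast-like barcodes. The part of RNA from other cells in the atrial values was not tested. Sfrp1 and Dkk3 were seen together in 315 thinned atrial barcodes, where the product of the shares gives 303.2. Among the unsupervised clusters named atrial cardiomyocyte-like, Sfrp1 stood at 114 CPM in one of 614 barcodes (128 and 100 CPM by library) and at 730 CPM in one of 649 (702 and 762 CPM), while Dkk3 stood at 438 and 411 CPM. In the smaller clusters of that name, of 82, 52 and 59 barcodes, Sfrp1 was at 282, 343 and 148 CPM. Dkk3 was lower there, at 259, 165 and 178 CPM. Since the clusters were made from the same counts, these levels are a description.

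Interstitial fibroblast-like barcodes were split by Mfap5, a microfibril gene. This split, and that by elastin described next, were chosen after the data had been seen. In 471 barcodes with at least 2 Mfap5 counts, Rspo3 had 1 count, while 412 barcodes without Mfap5 held 43 (19.7 CPM, 16.8 and 23.2 by library). Sfrp2 was lower in the Mfap5 barcodes, at 354 against 665 CPM (0.533 times, 0.492 to 0.577), and Dkk3 was at 0.737 times. Frzb was at 78.4 against 58.2 CPM, 1.35 times as high in the Mfap5 barcodes (1.08 to 1.68), in both libraries. The fibroblast transcription factor gene Tcf21 was at 661 against 565 CPM, so both sides carried it, but Clec3b was at 410 against 42.2 CPM. Mfap5 is itself a marker of the fibroblast gate. Among the unsupervised clusters, the one named Scx/Fmod fibroblast-like held 111 Rspo3 counts. Of its 183 barcodes, 45.4% met the Scx/Fmod gate. Clusters named interstitial fibroblast-like held 3, 0, 0 and 0 Rspo3 counts. The part of Scx/Fmod-type barcodes in the side without Mfap5 was not tested. Mfap5 barcodes were deeper, with a median of 6482 against 4990.5 counts.

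Smooth muscle-like barcodes were split by elastin (Eln), with at least 100 or under 100 Eln counts per 10000. Sfrp2 stood at 1019 and 1106 CPM in the 98 elastin-rich barcodes of libraries 1 and 2 and at 80.8 and 113 CPM in the 160 others, a 10.8-fold difference (8.49 to 13.8). Dkk3 was 4.37-fold higher (2.92 to 6.69) and Sfrp1 2.30-fold higher (1.58 to 3.36) in elastin-rich barcodes, with no overlap between libraries for either. Wnt5a and Rspo3 were at 14.2 against 16.0 and 6.10 against 4.92 CPM, within counting error. Sost, which encodes sclerostin, an Lrp-binding Wnt inhibitor best known from bone, was at 816 against 20.9 CPM. Median depth was 4763.5 and 4702 counts. Other genes moved across this split: Myh11, the smooth muscle myosin heavy chain gene, was at 382 against 836 CPM and Osr1, a mesenchymal transcription factor gene, at 576 against 67.7 CPM. The part of such a difference in cell type in the Sfrp2, Dkk3 and Sfrp1 values was not tested.

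**Figure D3:**
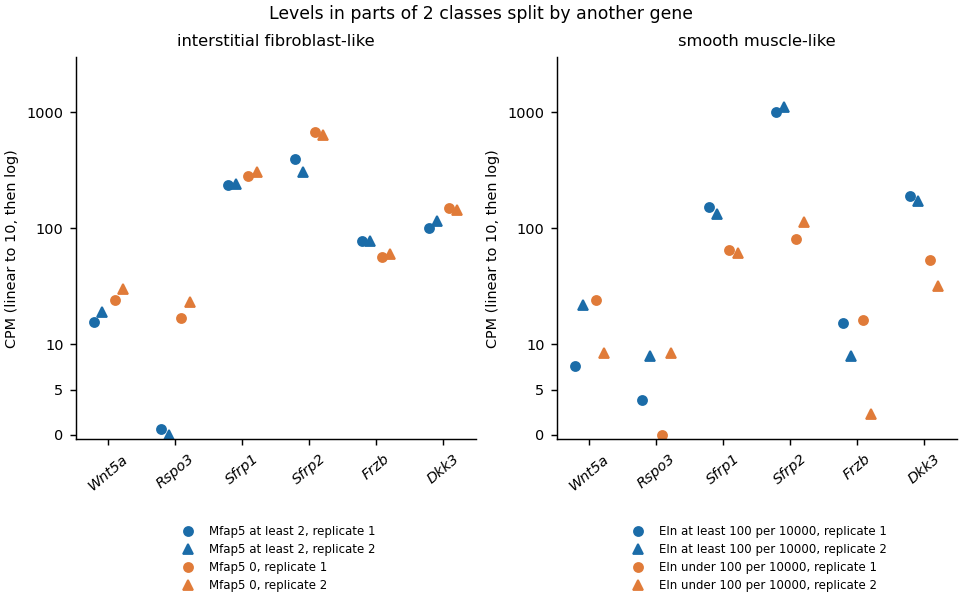
CPM of 6 of the genes in interstitial fibroblast-like and smooth muscle-like barcodes split by Mfap5 or by Eln. The y axis is linear to 10 and logarithmic above, circles are library 1, triangles library 2, and colours are the sides of each split. Rspo3 has 1 count against 43 across the interstitial split, and Sfrp2 is at 1060 against 98.5 CPM across the smooth muscle-like split.

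In the interstitial fibroblast-like class, 525 of 1000 thinned barcodes had Sfrp1 or Sfrp2, and 145 had both, where the product of the shares gives 110.9. Sfrp2 and Dkk3 met in 79 barcodes against 60.8, Sfrp2 and Frzb in 51 against 37.8, and Sfrp1 and Dkk3 in 76 against 75.9. In the Scx/Fmod class Sfrp2 and Rspo3 met in 7 of 99 barcodes against 11.2. These are counts of barcodes from 1 suspension, given as a description.

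A list of 86 other Wnt pathway genes set the 9 in context. Of 60 with enough counts, 10 passed the size rule in some class, beside the 11.5% of all genes, and the median ratio of the highest class to the next was 1.27. Secreted components again made up most: 4 of 5 ligands tested and 3 of 4 secreted inhibitors passed, against 2 of 20 receptors, 1 of 5 feedback targets, and none of 16 transducers, 8 planar polarity genes and 2 secretion genes. A gene was tested only with at least 20 counts in some class, which a sparse gene can reach only where it is high. Of 17 ligands 5 were tested and of 11 secreted inhibitors 4, against 20 of 23 receptors and 16 of 17 transducers. The part of this filter in the contrast was not tested. Rspo2 did not reach the minimum in the 9 classes, but it stood at 33.4 and 55.8 CPM in epicardial-like barcodes of libraries 1 and 2 and at or under 2.50 CPM elsewhere, and passed there when that class was included. Rspo4 had 0 counts. Among the 9 classes, smooth muscle-like barcodes led for the ligand Wnt5b (127 and 174 CPM in libraries 1 and 2), for Sost (348 and 295 CPM) and for the receptor gene Fzd7 (26.9 and 25.3 CPM), which was at 29.2 and 19.5 CPM in epicardial-like barcodes. Endocardial-like barcodes led for Wnt9b, Wnt11, Fzd10 and Sp5, a transcription factor gene induced by Wnt. Scx/Fmod barcodes led for the ligand Wnt16 (94.1 and 93.3 CPM) and for Wif1 (98.2 and 50.0 CPM), a secreted inhibitor, and atrial barcodes for Sfrp5 (6.54 and 10.8 CPM).

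Several of these calls were narrow. In the endocardial-like class 17 of 33 Wnt9b counts came from 1 barcode, and Wnt9b and Fzd10 no longer passed without the 3 barcodes richest in Wnt4. Wnt9b, Wif1, Fzd7 and Sp5 did not pass in library 2 alone, nor Fzd7 and Sp5 in library 1 alone. This came from the minimum of 20 counts, not from the ratio, which the rule had already asked of each library. They had 8, 15, 17 and 13 counts in library 2, and Fzd7 and Sp5 had 17 and 13 in library 1. Wif1 and Fzd7 did not pass with TMM scaling. With the epicardial-like class included, Wnt11 (15.1 CPM there against 24.6 CPM in endocardial-like barcodes), Fzd7 and Sp5 no longer passed, and Rspo2 and Wnt9a passed as epicardial-like. Wnt11 also failed with clusters, with 1 more marker asked of each gate and with haemoglobin under 0.1% of counts. Wnt16 failed with clusters and with haemoglobin under 0.1%, and Wif1 with 1 more marker and with haemoglobin under 0.1%. Wnt5b and Sost passed under all 16 alternatives tried, and Sfrp5 under all but the one that left out barcodes over 20% mitochondrial counts.

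Receptors and effectors were spread across the classes. Lgr4, an R-spondin receptor gene, was highest in atrial (56.0 CPM), ventricular (41.4) and Scx/Fmod barcodes (40.4) and was at 20.1 CPM in epicardial-like barcodes, where Rspo1 was highest. Lgr5 and Rnf43 reached no more than 5.51 CPM, and Znrf3 lay between 3.04 and 22.3 CPM. Wls, needed to release Wnt ligands from cells, was at 196 CPM in epicardial-like, 178 in atrial, 151 in Scx/Fmod and 131 in endocardial-like barcodes. Fzd4 was highest in vascular endothelial-like barcodes (112 CPM), and Ctnnb1, which encodes beta-catenin, lay between 94.8 and 439 CPM. Axin2, a negative feedback gene induced by beta-catenin signalling, was highest in Scx/Fmod (20.2 CPM) and epicardial-like barcodes (18.4 CPM). These Axin2 levels rest on 11 counts each. Lef1 was at 18.4 CPM in Scx/Fmod barcodes, from 10 counts, and at or under 5.02 CPM elsewhere.

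**Figure D4:**
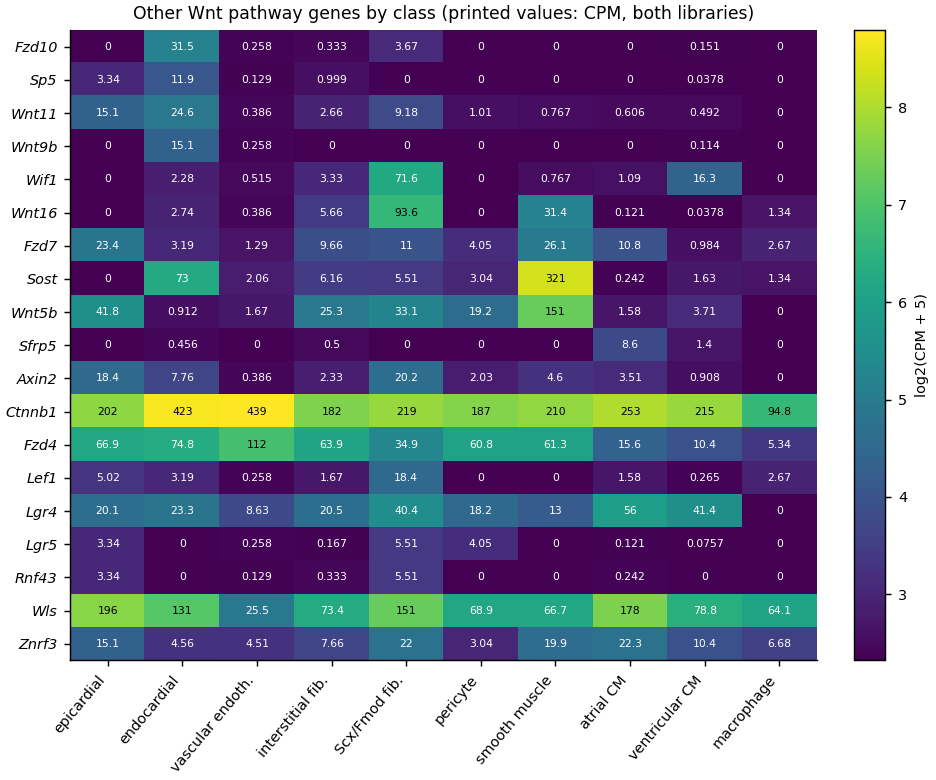
Level of 19 other Wnt pathway genes (rows) in 10 cell classes (columns). Colour is log2(CPM + 5) and the printed numbers are CPM over both libraries. Sost and Wnt5b peak in smooth muscle-like, Wnt16 and Wif1 in Scx/Fmod fibroblast-like and Fzd10 in endocardial-like barcodes, while Ctnnb1 is at 94.8 CPM or more in every class.

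The genes most like each member across the 9 compared classes were named by Pearson r of log2(CPM + 5), taking the lower of the r of the 2 libraries, among 13087 genes. The 9 points share libraries, depth and class gates, and r is given as a description. Wnt2 was most like Lypd6 (0.990), Mal (0.987) and Pnliprp1 (0.981), and Wnt4 like Col23a1 (0.958), Lypd6 (0.956) and Dpp4 (0.954), all of them highest in endocardial-like barcodes. Wnt5a was most like Mmp11 (0.923), Zfp677 (0.897) and Chsy1 (0.896), and Rspo3 like Itgbl1 (0.941), Fam19a5 (0.932) and Col9a1 (0.913). For Sfrp1 the genes were Epha3 (0.947), Fbln1 (0.942) and Glrb (0.926), and for Dkk3 Fbln1 (0.909), Kif5c (0.904) and Glrb (0.904). Sfrp2 was most like Mfap4 (0.980), Gm26771 (0.975) and Ccn5 (0.969), and Frzb like Col6a6 (0.985), Olfml1 (0.974) and Gli1 (0.973). Fbln1, which encodes the matrix protein fibulin 1, and Glrb, which encodes a glycine receptor subunit, were thus named for both Sfrp1 and Dkk3. Zfp677 and Glrb were low throughout, with highest levels of 3.67 and 4.97 CPM, under the 5 added before the logarithm. The epicardial-like class, where Wnt5a was highest, is not among the 9. Rspo1 did not reach the minimum in the 9 classes and has no such list.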

How the data were processed

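The deposited matrices, 1 for each technical replicate, hold counts as whole numbers for genes by barcodes, not normalised by the authors. Cell Ranger 2.1.0 and mm10 are given in the submitters' processing notes. The sources used here do not say if these are counts of reads or of unique molecular identifiers. Symbols and coordinates came from GENCODE vM21 on GRCm38, which names 27645 of 27999 features.

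The members, marker lists and pathway list were chosen with earlier results of these data known. A gate asked for a number of detected markers and a density of marker counts per 10000. No doublet caller was run. Counts were summed per class and library and divided by all counts of the class (CPM). Poisson, Clopper-Pearson and conditional binomial intervals are at 95% (scipy 1.17.1, numpy 2.4.6, Python 3.11.15). Depth per barcode ran from 1851 to 76750 counts. A lower bound uses a floor of 3 counts over the class. Named were all 9 members, per class up to 5 pathway genes past the size rule, 9 further pathway genes in every case and the 3 most alike genes per member; other genes were named after their values were seen. Marker lists covered 17 gates, from cardiomyocytes to glia and neurons; mast cell-like, megakaryocyte or platelet-like and neuron-like gates took no barcode, while monocyte or granulocyte-like (14 barcodes), lymphatic endothelial-like (6), T, NK or B cell-like (31) and glia-like (2) classes were too small to describe.

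Alternatives changed scaling (edgeR 4.0.16, R 4.3.3), barcode filters, gates (Leiden clusters: scanpy 1.11.5, leidenalg 0.10.2, igraph 0.11.9), summing, count minimum, thinning depth and library. The scripts were tested on simulated counts. Plots used matplotlib 3.10.9.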

Additional observations from a re-analysis of the deposited data

How the results depend on the processing

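The same 4 of 8 members passed the size rule under every alternative except the inclusion of the epicardial-like class, and 4 passed with each library left out. The latter was fixed in advance: the rule asked for 2-fold in both libraries, and each of these 4 had at least 20 counts in either. The number of other pathway genes past the rule was 10, and it was 6 with haemoglobin under 0.1% of counts, where fewer barcodes and genes were tested. It was 14 with no minimum of counts, 8 with TMM scaling and 9 with either library left out. The count past 2-fold was 4 for epicardial-like over endocardial-like under all alternatives, 4 or 5 for Scx/Fmod over interstitial fibroblast-like, and 2 to 4 for atrial over ventricular, where Wnt5a fell under the fold with TMM scaling (1.85). Of 587 values under an alternative, 509 stayed within the interval of the value reported (counts within 1.5 times), 78 moved and 0 called ratios turned around. The cause of these moves was not tested. With 1 library left out a called ratio could not turn around, since a call asked for the fold in both. Leaving out 1 library moved Wnt4 epicardial-like over endocardial-like between 0.690 and 1.35, Wnt5a in that pair between 38.6 and 116, and Rspo3 Scx/Fmod over the next class between 7.14 and 18.5. TMM scaling shifted all atrial over ventricular ratios by -0.48 and all Scx/Fmod over interstitial ratios by -0.14 on the log2 scale, and totals without mitochondrial and haemoglobin genes shifted the former by -0.37. Leaving out barcode sequences found in both libraries, leaving out the 3 barcodes richest in Wnt4 and adding the epicardial-like class were chosen after seeing the data. No paired analysis was possible because there is 1 group. Shares of barcodes with a count depend on depth: for Wnt2 in endocardial-like barcodes the share was 5.04% at 1000 counts and 24.4% unthinned. With 19 epicardial-like barcodes in library 1 and 51 and 48 Scx/Fmod barcodes, levels of a few counts were not measurable in those classes.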

Other observations

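Barcodes with a count of Rspo3 or Frzb differed in other genes from the rest of their class, both where the member was low (atrial and ventricular cardiomyocyte-like) and where Rspo3 was highest (Scx/Fmod fibroblast-like). These sets were found after the data had been seen, and their barcodes were picked for a count of the member. Rspo3 was counted in 12 atrial cardiomyocyte-like barcodes, 5 in library 1 and 7 in library 2, with a median depth of 8363 counts against 5670 for the other 1344. In these barcodes Bmp2, a ligand gene of the atrioventricular canal, stood at 1234 and 1683 CPM in libraries 1 and 2, compared with 15.5 and 8.98 CPM in the others. Tbx3, a transcription factor gene of the conduction system, was at 189 against 3.81 CPM, and Sfrp5 at 161 against 6.63 CPM. Shox2 did not differ beyond counting error (3.03-fold, 0.968 to 7.27). Its 5 counts there gave 150 CPM in library 1 and 0 in library 2, against 15.3 and 15.9 CPM in the others. The atrial inhibitors were lower there: Sfrp1 was at 37.8 against 416 CPM and Dkk3 at 56.7 against 402 CPM, from 4 and 6 counts.

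Frzb was counted in 28 ventricular cardiomyocyte-like barcodes (15 and 13 by library; median depth 7674 against 6333 counts). Gja5, the connexin gene of fast-conducting ventricular cells, was at 345 against 22.7 CPM, and the transcription factor gene Etv1 at 349 against 29.2 CPM. Cpne5 was at 227 against 7.83 CPM and the guidance gene Slit2 at 231 against 9.54 CPM. Postn, a fibroblast matrix gene, was also higher, at 262 against 26.8 CPM. All 5 were higher in both libraries.

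Rspo3 was counted in 26 of the 99 Scx/Fmod fibroblast-like barcodes, with a median depth of 5203.5 counts against 4996 in the rest. Car3, which encodes a carbonic anhydrase, was at 1375 against 351 CPM there (3.92-fold, 3.15 to 4.90), Tbx3 at 87.6 against 10.1 CPM and the neuropeptide gene Npy at 229 against 58.0 CPM. Scx was at 229 against 169 CPM and Fmod at 580 against 535 CPM. Sfrp2 had opposite order in the libraries: 979 against 3355 CPM in library 1 and 2756 against 2064 CPM in library 2.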
